A study of Mus musculus with 12 samples.

Results

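Glycolytic enzymes, sugar and lactate transporters, the hypoxia-inducible factor gene Hif1a and genes that HIF1A is known to switch on were followed in mouse macrophages expressing different forms of the transcription factor IRX3. The 36 genes were chosen as a list of symbols by function, with earlier results of these data known. All 36 were found among the 55401 genes of the table, and all 36 passed the filter on low values (10 or more normalized counts in 3 or more libraries), as did 13369 genes in all. Aldoa has a second annotated gene, with 0 to 6.5 normalized counts, which was not tested and is not counted among the 36. The list holds 3 genes of oxygen sensing, 3 transporters, 12 genes that phosphorylate or cleave sugars, 7 that lead on to pyruvate and lactate, 2 pyruvate dehydrogenase kinases and 9 HIF1A targets outside glycolysis.

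Glycolysis breaks glucose down to pyruvate in the cytosol, and macrophages stimulated with bacterial lipopolysaccharide (LPS) are known to rely on it heavily and to release lactate. HIF1A is a transcription factor that prolyl hydroxylases of the EGLN family mark for destruction when oxygen is plentiful. LPS raises Hif1a transcription and stabilises its protein, and HIF1A binds short promoter motifs with the core ACGTG or GCGTG to activate genes for glucose uptake, glycolysis and lactate export.

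Total RNA was sequenced from bone-marrow-derived macrophages (BMDMs) of Irx3-/- mice on the C57BL/6J strain, grown for 7 days in 20 nM of the growth factor M-CSF. Adeno-associated virus (AAV) delivered IRX3_S389A, IRX3_S361A, IRX3_WT or GFP, and all cells then received 100 ng/ml LPS for 4 h. In the mutants the named serine is replaced by alanine, GFP served as the control, and every group therefore lacked endogenous Irx3 and was LPS-treated. There were 3 libraries per construct. Whether they derive from different mice or cultures is not in the labels, and p-values measure only the spread between these libraries. The age of the mice is not given in the sources used here.

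Irx3 itself had 187 ± 20.2 normalized counts with IRX3_S389A, 349 ± 21.5 with IRX3_S361A and 177 ± 16.3 with IRX3_WT (SD, n = 3 each), and none in the GFP libraries. Irx3 RNA was thus more abundant with IRX3_S361A than with IRX3_WT, by a log2 difference of 0.97 (limma adjusted p = 0.000197), and less abundant with IRX3_S389A than with IRX3_S361A, by a log2 difference of -0.90 (limma adjusted p = 0.000867). The substitution and the amount of transcript cannot be told apart in these 2 comparisons. All 8 macrophage markers tested were abundant, with sums of 393368 to 406993 normalized counts per library with IRX3_S389A, 416752 to 429929 with IRX3_S361A, 389296 to 393725 with IRX3_WT and 359792 to 370143 with GFP. Lyz2 alone, at 208870 to 254510 over the 12 libraries, made up most of each sum. The 8 markers went both ways, with 3 called higher and 1 lower in IRX3_WT vs GFP, against 21.0% and 18.6% of all genes tested. In IRX3_S361A vs IRX3_WT 2 were higher and 2 lower, against 6.43% and 9.07%. In IRX3_S389A vs IRX3_WT 3 were higher and 3 lower, against 8.21% and 7.08%. Deposited library totals ran from 17325311 to 19796325 and were lowest in GFP. Stromal markers, mostly Pdgfrb, summed to 199 to 211 with IRX3_S389A, 127 to 190 with IRX3_S361A, 238 to 251 with IRX3_WT and 84.7 to 119.7 with GFP. Markers of erythroid cells, megakaryocytes and mast cells, nearly all from the platelet gene Pf4, summed to 3347 to 3551, 3495 to 3691, 4095 to 4300.0 and 2541 to 3041 in the same order of constructs. Dendritic cell markers, mostly Xcr1, summed to 147 to 186, 137 to 160, 161 to 168 and 117 to 151 in that order. Neutrophil markers summed to 31.5 to 49.3, 28.3 to 48.7, 43.2 to 63.3 and 26.7 to 40.8. Lymphocyte markers summed to 23.8 to 34.6, 16.1 to 24.3, 16.7 to 35.3 and 18.7 to 37.1. Except for the lymphocyte markers, all these sums were higher with IRX3_WT than with GFP, without overlap. The part of any of them in the results below was not tested. In bulk RNA, fewer cells of a type and less RNA per cell cannot be told apart.

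The 250 bases upstream of annotated starts were read for 35 of the 36 genes (RefSeq, GRCm38.p6; 52 windows, since 11 genes have more than 1 start). ACGTG, searched on both strands, was present for 22 of 35 genes (62.9%), against 25.2% of tested genes with a window and 18.5% of all genes. GCGTG was present for 24 of 35 (68.6%), against 49.8% and 30.9%. At least 1 of the 2 cores was present for 32 of 35 (91.4%), against 61.2% and 41.5%. A palindrome, CACGTG, holds ACGTG on each strand and was counted once per strand. The motif ACANNTGT, a palindrome known from Iroquois proteins and searched on both strands, was present for 3 of 35 genes (8.57%), against 4.11% of tested genes and 7.20% of all genes. Members have more windows per gene than other genes do. Counted per window, ACANNTGT was in 5.77% for members, below the 6.31% for all genes and above the 3.37% for tested genes, while ACGTG was in 48.1%, against 21.6% for tested genes and 16.6% for all genes. These are letter matches in a window, and members were partly put on the list because HIF1A is known to regulate them. Windows of 6 genes that the results below turn on, picked after their values were seen, are printed as examples. Capitals mark each ACGTG or GCGTG, or its reverse complement CACGT or CACGC. The windows are at chr12:73907617-73907866 on the plus strand for Hif1a, chr2:27027999-27028248 on the minus strand for Slc2a6, chr11:120948817-120949066 on the plus strand for Slc16a3, chr7:46845554-46845803 on the plus strand for Ldha, chr7:138909507-138909756 on the minus strand for Bnip3 and chr16:70313699-70313948 on the plus strand for Gbe1.
Hif1a: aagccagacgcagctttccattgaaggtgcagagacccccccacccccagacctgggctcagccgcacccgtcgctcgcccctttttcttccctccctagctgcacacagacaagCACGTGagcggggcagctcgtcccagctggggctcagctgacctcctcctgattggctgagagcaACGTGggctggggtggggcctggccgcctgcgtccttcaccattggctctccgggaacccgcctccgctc
Slc2a6: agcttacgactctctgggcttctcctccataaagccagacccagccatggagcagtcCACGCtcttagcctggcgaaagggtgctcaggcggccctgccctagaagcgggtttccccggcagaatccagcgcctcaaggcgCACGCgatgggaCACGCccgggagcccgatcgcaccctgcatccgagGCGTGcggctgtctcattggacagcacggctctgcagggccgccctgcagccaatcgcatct
Slc16a3: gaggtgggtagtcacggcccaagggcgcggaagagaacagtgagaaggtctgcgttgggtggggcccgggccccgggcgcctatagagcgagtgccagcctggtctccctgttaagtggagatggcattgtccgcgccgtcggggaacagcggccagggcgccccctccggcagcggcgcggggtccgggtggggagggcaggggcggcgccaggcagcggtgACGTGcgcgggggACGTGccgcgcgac
Ldha: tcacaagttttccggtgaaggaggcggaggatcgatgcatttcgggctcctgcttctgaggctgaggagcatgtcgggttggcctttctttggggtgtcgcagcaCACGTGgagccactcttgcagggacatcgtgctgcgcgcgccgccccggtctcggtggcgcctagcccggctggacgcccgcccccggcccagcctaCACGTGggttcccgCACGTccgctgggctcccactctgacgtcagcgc
Bnip3: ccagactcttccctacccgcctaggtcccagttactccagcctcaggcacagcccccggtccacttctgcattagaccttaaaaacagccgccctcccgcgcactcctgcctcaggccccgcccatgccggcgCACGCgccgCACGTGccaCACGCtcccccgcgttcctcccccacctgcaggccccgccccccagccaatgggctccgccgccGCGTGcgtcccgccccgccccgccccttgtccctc
Gbe1: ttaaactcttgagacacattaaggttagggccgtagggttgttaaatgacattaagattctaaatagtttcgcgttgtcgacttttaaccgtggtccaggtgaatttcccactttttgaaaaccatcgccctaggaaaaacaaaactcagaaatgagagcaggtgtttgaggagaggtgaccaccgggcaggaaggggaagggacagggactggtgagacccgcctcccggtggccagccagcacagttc
The Ldha window shown held 5 matches, all of ACGTG, and Bnip3 held 2 of ACGTG and 3 of GCGTG. Ldha has another start, whose window at chr7:46846832-46847081 is not shown and held 0 of ACGTG and 1 of GCGTG. Slc2a6 held 4 matches, all of GCGTG, Hif1a 3 of ACGTG and Slc16a3 2 of ACGTG. The Gbe1 window held none, although Gbe1 was among the members that differed most between constructs.

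Adding wild-type IRX3 back to cells that lack it was compared first, against GFP. With IRX3_WT, all 3 transporters, 7 of the 12 genes that phosphorylate or cleave sugars and 7 of the 9 HIF1A targets outside glycolysis rose relative to GFP. The mitochondrial adenylate kinase gene Ak4 rose by 1.28 on the log2 scale, the lactate exporter gene Slc16a3 by 0.80, the glycolytic activator gene Pfkfb3 by 0.79 and the glucose transporter gene Slc2a1 by 0.64. Of 36 members 23 rose and 1 fell (limma adjusted p under 0.05), against 21.0% of all genes tested that rose and 18.6% that fell. The median log2 fold change of the members was 0.24, and that of all genes tested was -0.0055. Fold changes are on the log2(value + 1) scale throughout.

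**Figure D1:**
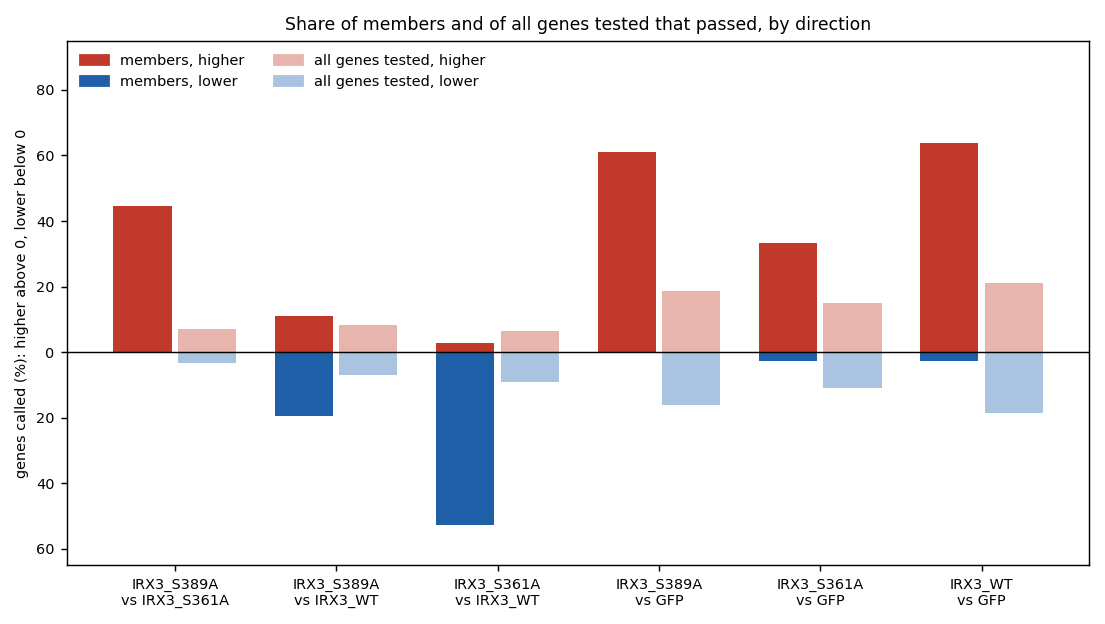
The vertical axis gives the percentage of genes called in each of the 6 comparisons named on the horizontal axis, with genes that were higher above 0 and genes that were lower below 0. Dark bars are the 36 members and pale bars are all 13369 genes tested. Among members the higher calls outnumber the lower ones by 23 to 1 in IRX3_WT vs GFP, and the lower calls outnumber the higher ones by 19 to 1 in IRX3_S361A vs IRX3_WT.

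That count depends on how libraries are scaled. When all libraries were set to equal totals, the median of all genes in IRX3_WT vs GFP moved to -0.18, since GFP libraries had the lowest deposited totals, and the split of all called genes became 1395 higher and 5519 lower in place of 2805 and 2483. The members then split into 14 higher and 6 lower, with a median of 0.063. Together the 36 genes and the second Aldoa gene held 189536 to 193126 normalized counts per IRX3_WT library and 168264 to 172281 per GFP library. As shares of the library totals, however, these were 0.957 to 0.985% and 0.971 to 0.986%.

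With IRX3_S361A, all 3 transporters, the hexokinase genes Hk1 and Hk2 and 6 of the 9 HIF1A targets outside glycolysis fell relative to IRX3_WT. Ak4 and the growth factor gene Vegfa fell by 0.85 and 0.75, the mitophagy receptor gene Bnip3 by 0.61, Hif1a by 0.53 and Slc2a1 by 0.45. Of 36 members 19 fell and 1, Pfkfb4, rose, against 9.07% and 6.43% of all genes tested, with a median of -0.18 for members and 0.0074 for all genes. At equal library totals 15 fell and 3 rose, with a median of -0.12 for members and 0.07 for all genes, and all called genes split into 1805 higher and 754 lower in place of 859 and 1212.

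With IRX3_S389A, fewer members stood apart from IRX3_WT, and in both directions. Bnip3, Pfkl, Slc2a1 and Ero1l were among the 7 that fell, and Aldoc, Pfkfb4, Hk3 and Pkm were the 4 that rose. The background was 7.08% lower and 8.21% higher over all genes tested, and the medians were -0.035 for members and 0.0003 for all genes. Leaving out IRX3_WT replicate 3 left 6 members called and leaving out IRX3_S389A replicate 1 left 7, in place of 11. Only 4 of the 11 calls held with every library left out in turn, those of Slc2a1, Gapdh, Pfkfb4 and Aldoc.

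Set against each other, the mutants differed in 1 direction among the called members: 16 of 36 were higher with IRX3_S389A than with IRX3_S361A and none lower, against 7.0% and 3.16% of all genes tested. At an unadjusted limma p under 0.05 the counts were 21 higher and 0 lower, and edgeR and DESeq2 also called 0 lower. Ak4 led with 0.57, followed by Bnip3 with 0.33 and the glycogen branching enzyme gene Gbe1 with 0.32. The medians were 0.15 for members and -0.0023 for all genes. With library totals made equal, 12 members were higher and none lower, with a median of 0.098 for members and -0.058 for all genes, and all called genes split into 597 higher and 1053 lower in place of 936 and 423. A count test (edgeR) on recovered reads called 16 members with 12 libraries. With the 9 libraries whose step, the value of 1 read, differed from 1 by over 1%, which leaves IRX3_S361A with 1 library, assumed to vary like the other groups, it called 5.

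Both mutants were also set against GFP. With IRX3_S389A, 22 of 36 members rose and none fell, against 18.8% and 16.2% of all genes tested, led by Ak4, Pfkfb3, Slc16a3 and Slc2a6. No member was lower at an unadjusted limma p under 0.05, and edgeR and DESeq2 also called 0 lower. With IRX3_S361A, 12 rose and 1 fell, against 14.9% and 10.9%, led by Pfkfb3, Slc2a6 and Ak4. The members' medians were 0.20 with IRX3_S389A and 0.041 with IRX3_S361A, beside all-gene medians of -0.0061 and 0.0041. With equal library totals the splits were 10 higher and 6 lower with IRX3_S389A and 5 higher and 7 lower with IRX3_S361A, with all-gene medians of -0.17 and -0.11. All called genes then split into 1334 higher and 5397 lower with IRX3_S389A, in place of 2516 and 2160, and into 1047 and 3226 with IRX3_S361A, in place of 1996 and 1461. Without GFP replicate 1 the IRX3_S361A count of members fell to 7, and edgeR called 12 on 12 libraries and 5 on the 9, in place of 13. The comparisons share libraries, so their values below are given side by side and not as independent tests.

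**Figure D2:**
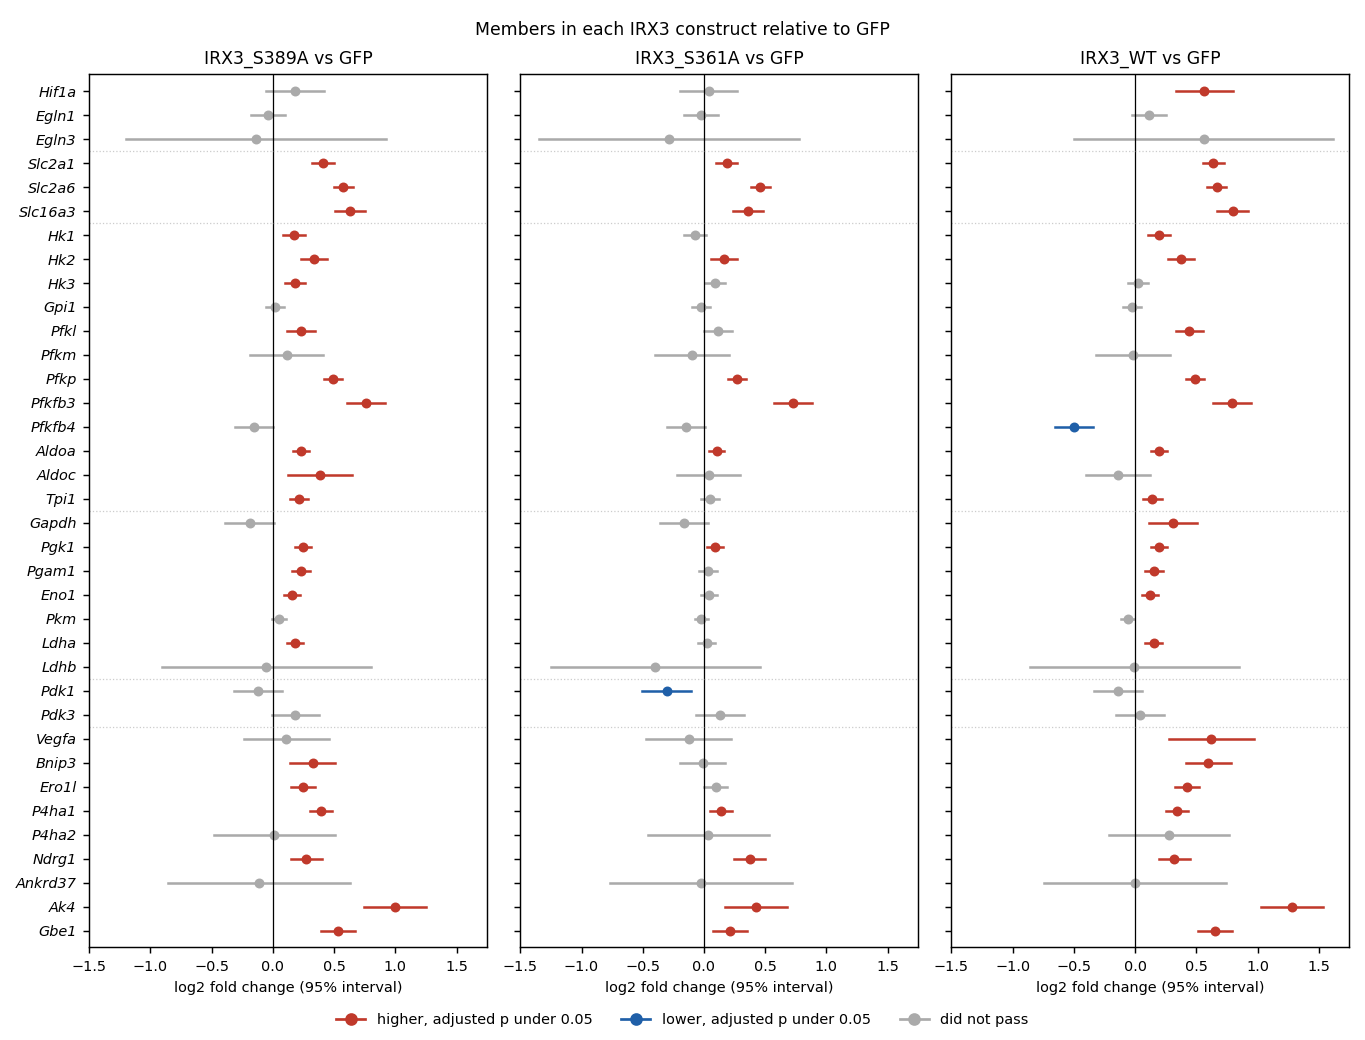
Log2 fold changes of the 36 members (rows, grouped by role) with 95% intervals for IRX3_S389A, IRX3_S361A and IRX3_WT, each relative to GFP. Red points passed the test as higher, blue as lower, and grey did not pass; Ak4, Pfkfb3 and the 3 transporters lie right of 0 in all 3 panels, and Pfkfb4 is the 1 blue point in the IRX3_WT panel.

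**Figure D3:**
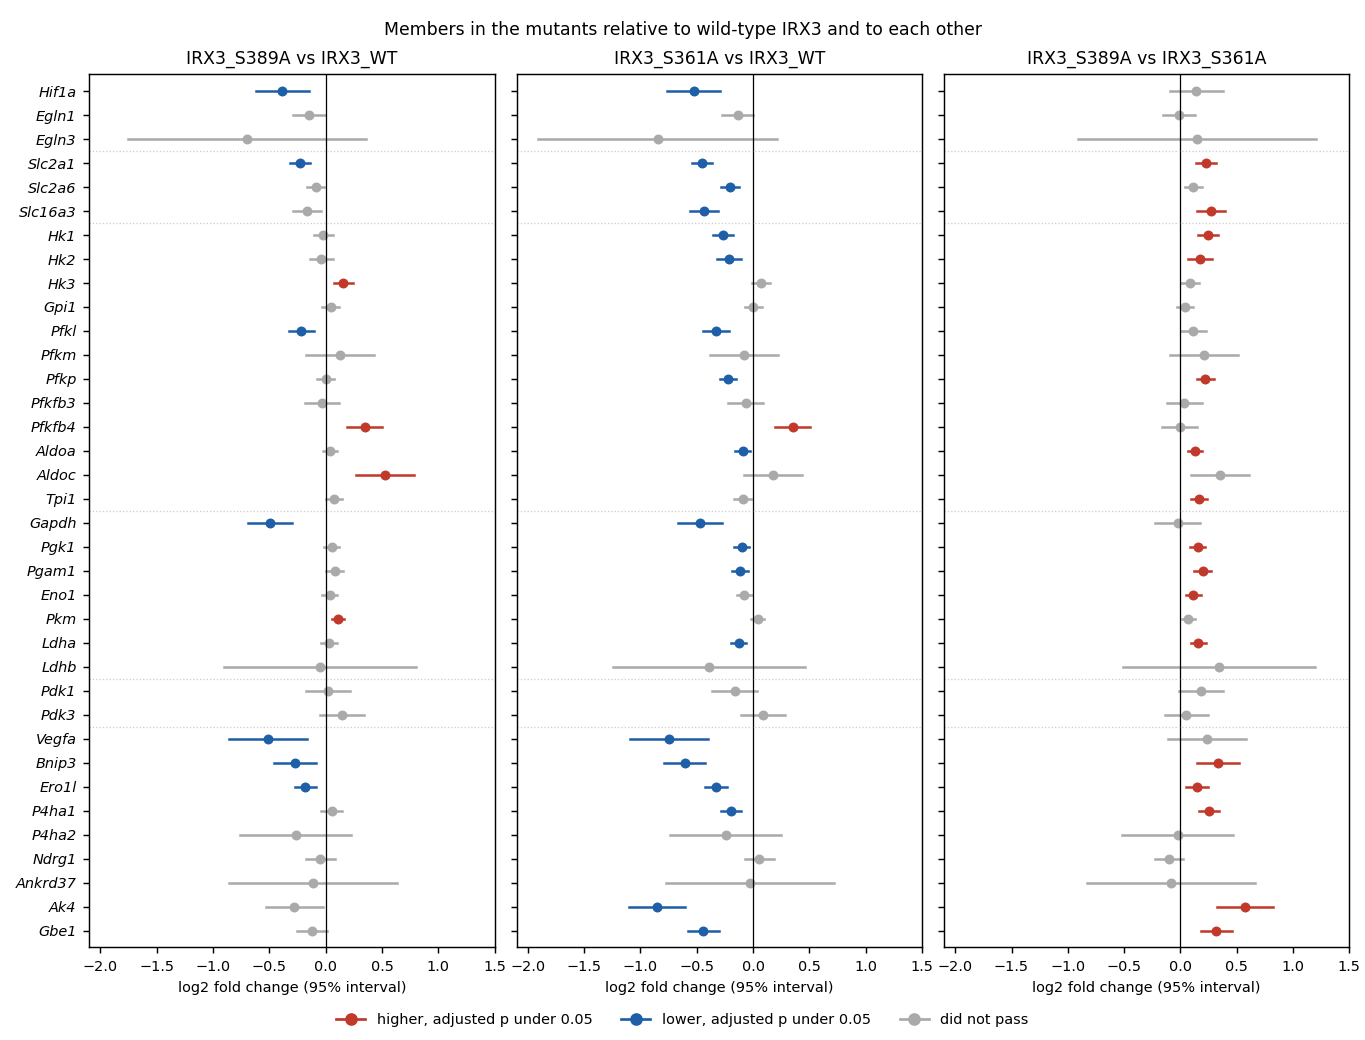
Log2 fold changes of the same 36 members with 95% intervals for IRX3_S389A and IRX3_S361A relative to IRX3_WT, and for IRX3_S389A relative to IRX3_S361A, coloured as by direction and test. In the IRX3_S361A vs IRX3_WT panel 19 members are blue and Pfkfb4 is red, and in the panel of IRX3_S389A vs IRX3_S361A 16 are red.

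Over the 4 constructs, 27 of 36 members passed a test of any difference (limma F test), against 44.2% of all genes tested. Ldhb, Gpi1, Ankrd37, Egln1, P4ha2, Egln3, Pfkm and Pdk3 passed in none of the 6 pairwise comparisons. Several of these were weakly expressed: Egln3 had 3.04 to 20.5 normalized counts over the 12 libraries, Ldhb 6.07 to 20.7 and Ankrd37 11.1 to 29.6, where a moderate difference would not be detectable. Gpi1, which converts glucose phosphate to fructose phosphate, was well expressed at 6778 to 7384 normalized counts. The 95% interval of its log2 difference between IRX3_WT and GFP was -0.10 to 0.046, but at equal library totals Gpi1 was called lower, at -0.20.

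Among the genes of oxygen sensing, Hif1a was highest with IRX3_WT. Hif1a had 4792, 4846 and 5028 normalized counts with IRX3_S389A, 3817, 4969 and 4584 with IRX3_S361A, 6794, 5678 and 6743 with IRX3_WT, and 4555, 4275 and 4121 with GFP. The 3 IRX3_WT libraries lay above the other 9, and IRX3_S361A libraries overlapped both IRX3_S389A and GFP. Against GFP, Hif1a rose by 0.57 (SE 0.10, limma adjusted p = 0.00203) on the log2 scale with IRX3_WT. Relative to IRX3_WT it fell by 0.39 (SE 0.10, limma adjusted p = 0.0371) with IRX3_S389A and fell by 0.53 (SE 0.10, limma adjusted p = 0.0084) with IRX3_S361A. Against GFP it did not pass with either mutant, with differences of 0.18 for IRX3_S389A and 0.039 for IRX3_S361A. The call between IRX3_S389A and IRX3_WT was lost without any 1 of IRX3_S389A replicate 1, 2 or 3, IRX3_S361A replicate 3, IRX3_WT replicate 1 or 3 or GFP replicate 2 (log2 differences -0.41 to -0.34, limma adjusted p = 0.0528 to 0.121). Exons of other genes overlap 8.11% of those of Hif1a.

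Egln1 and Egln3 encode hydroxylases that inactivate HIF1A, and Egln3 is also a HIF1A target. Egln1 had 609, 630.1 and 683 normalized counts with IRX3_S389A, 617, 689.8 and 633 with IRX3_S361A, 700.0, 655 and 783 with IRX3_WT, and 659.9, 666 and 647 with GFP. All groups overlapped with IRX3_WT, and the difference between IRX3_WT and GFP was 0.11 (SE 0.07, limma adjusted p = 0.211). Egln3 reached 10 normalized counts in 4 libraries only, and its interval for the same difference ran from -0.50 to 1.62.

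All 3 transporters rose with each IRX3 construct. Slc2a1, which encodes the glucose transporter of the plasma membrane, had 3391, 3507 and 3573 normalized counts with IRX3_S389A, 2796, 3139.8 and 3038 with IRX3_S361A, 4063, 3955 and 4259 with IRX3_WT, and 2622, 2628 and 2631 with GFP. The 4 groups did not overlap, with IRX3_WT above IRX3_S389A, IRX3_S389A above IRX3_S361A, and IRX3_S361A above GFP. Against GFP, Slc2a1 rose by 0.41 (SE 0.044, limma adjusted p = 5.94e-10) with IRX3_S389A, rose by 0.19 (SE 0.044, limma adjusted p = 0.00109) with IRX3_S361A and rose by 0.64 (SE 0.044, limma adjusted p = 4.04e-15) with IRX3_WT. Set against IRX3_WT, it fell by 0.23 (SE 0.044, limma adjusted p = 0.000189) with IRX3_S389A and fell by 0.45 (SE 0.044, limma adjusted p = 4.22e-10) with IRX3_S361A. At equal library totals the IRX3_S361A difference from GFP was 0.072 and no longer passed.

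Slc2a6 encodes a hexose transporter found on lysosomes and had 6966, 7318 and 6530.4 normalized counts with IRX3_S389A, 6560.1, 6409 and 6233 with IRX3_S361A, 7261, 7562 and 7312 with IRX3_WT, and 4691, 4669.6 and 4594 with GFP. Every GFP library lay below the other 9, and the IRX3_S389A libraries spanned the gap between IRX3_S361A and IRX3_WT, overlapping both. With IRX3_WT, Slc2a6 rose by 0.67 (SE 0.039, limma adjusted p = 4.2e-17) relative to GFP, and with IRX3_S361A it fell by 0.21 (SE 0.039, limma adjusted p = 0.000163) relative to IRX3_WT. Slc16a3, which exports lactate, had 2647, 2817 and 2593 normalized counts with IRX3_S389A, 2096, 2268 and 2318 with IRX3_S361A, 2849, 2805 and 3428 with IRX3_WT, and 1667, 1744 and 1798 with GFP. IRX3_WT replicate 3 was the highest of the 12 libraries, IRX3_S389A overlapped IRX3_WT, and IRX3_S361A lay between these and GFP with no overlap. Slc16a3 rose by 0.80 (SE 0.06, limma adjusted p = 4.9e-11) with IRX3_WT relative to GFP, and fell by 0.44 (SE 0.06, limma adjusted p = 8.3e-06) with IRX3_S361A relative to IRX3_WT. Between IRX3_S389A and IRX3_WT it differed by -0.17 (SE 0.06, limma adjusted p = 0.062).

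**Figure D4:**
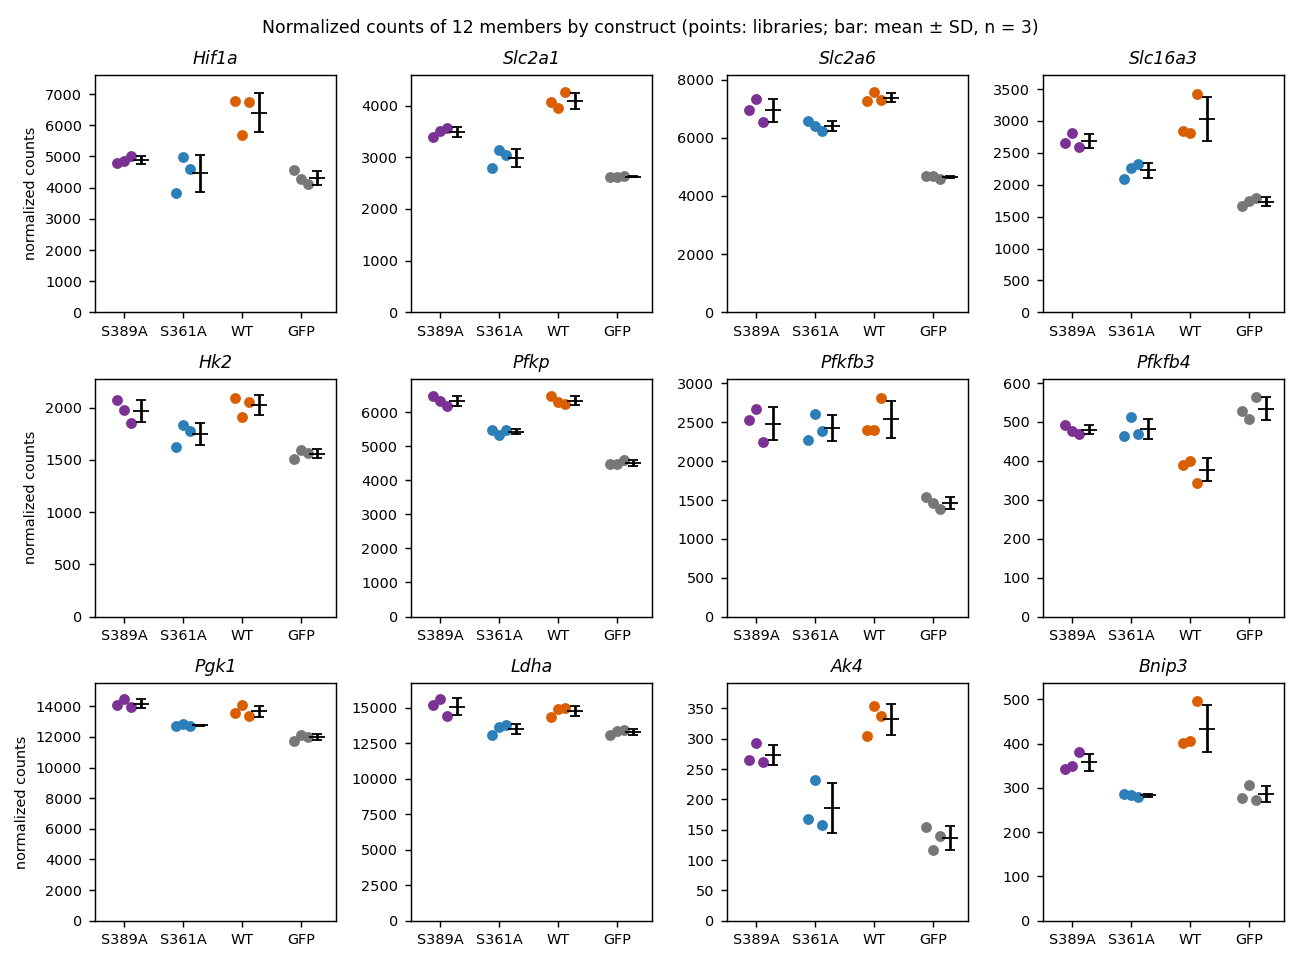
Normalized counts (vertical axes, from 0) of 12 members in IRX3_S389A, IRX3_S361A, IRX3_WT and GFP libraries; points are libraries and bars show the mean ± SD (n = 3). GFP libraries are lowest for Slc2a1, Slc2a6, Slc16a3, Hk2, Pfkp, Pfkfb3, Pgk1 and Ak4, and IRX3_WT libraries are lowest for Pfkfb4.

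Of the 12 genes that phosphorylate and cleave sugars, 7 rose and 1 fell with IRX3_WT relative to GFP. Among hexokinases, which trap glucose in the cell, Hk2 had 2071, 1979.8 and 1856 normalized counts with IRX3_S389A, 1628, 1833 and 1776 with IRX3_S361A, 2095, 1914 and 2056 with IRX3_WT, and 1511, 1599 and 1565 with GFP. IRX3_S361A libraries overlapped no other group, lying above GFP and below both other constructs. Hk2 rose by 0.37 (SE 0.052, limma adjusted p = 1.54e-07) with IRX3_WT relative to GFP and fell by 0.21 (SE 0.052, limma adjusted p = 0.00305) with IRX3_S361A relative to IRX3_WT. Hk1 had 2836, 2833 and 2724 normalized counts with IRX3_S389A, 2438, 2297 and 2344 with IRX3_S361A, 2882, 2873 and 2757 with IRX3_WT, and 2538, 2382 and 2524 with GFP. Here IRX3_S361A overlapped GFP, and IRX3_S389A overlapped IRX3_WT. Hk1 fell by 0.27 (SE 0.043, limma adjusted p = 1.63e-05) with IRX3_S361A relative to IRX3_WT, and rose by 0.19 (SE 0.043, limma adjusted p = 0.000366) with IRX3_WT relative to GFP. With library totals made equal, that second difference was 0.017 and no longer passed.

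The Hk2 rise of 0.16 with IRX3_S361A relative to GFP was lost without IRX3_S361A replicate 2 or 3 or GFP replicate 1 (log2 differences 0.13 to 0.15, limma adjusted p = 0.0678 to 0.12), and was 0.049 at equal totals. With IRX3_S389A relative to IRX3_S361A, Hk2 rose by 0.17 (SE 0.052, limma adjusted p = 0.0235), lost without IRX3_S389A replicate 1 or 2 or IRX3_S361A replicate 1 (log2 differences 0.12 to 0.17, limma adjusted p = 0.0776 to 0.172) and, at 0.12, with equal totals.

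Hk3, the hexokinase form enriched in myeloid cells, did not follow the other hexokinase genes. It had 5482, 5795 and 5099 normalized counts with IRX3_S389A, 5216, 5157 and 5029 with IRX3_S361A, 4851, 4870.1 and 4945 with IRX3_WT, and 4738, 4847 and 4851 with GFP. The IRX3_S389A values lay above those of IRX3_WT and GFP, which overlapped. Hk3 rose by 0.16 (SE 0.04, limma adjusted p = 0.00512) with IRX3_S389A relative to IRX3_WT, a call lost without IRX3_S389A replicate 2 (log2 difference 0.11, limma adjusted p = 0.09). Between IRX3_WT and GFP it differed by 0.023 (SE 0.04, limma adjusted p = 0.696), and at equal library totals it was called lower, at -0.15. Per kilobase of exon, Hk3 was the most abundant hexokinase in every group, with group means of 1307 to 1482 normalized counts per kb, against 277 to 333 for Hk1 and 261 to 339 for Hk2.

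Phosphofructokinase commits sugar to glycolysis, and its muscle, liver and platelet forms are encoded by Pfkm, Pfkl and Pfkp. Pfkp had 6471, 6327 and 6190.0 normalized counts with IRX3_S389A, 5483, 5339 and 5461 with IRX3_S361A, 6480.0, 6295 and 6222 with IRX3_WT, and 4463, 4462 and 4599 with GFP. IRX3_S389A and IRX3_WT covered the same range, IRX3_S361A lay below both, and GFP lay lowest, without overlap. Pfkp rose by 0.49 (SE 0.036, limma adjusted p = 5.47e-14) with IRX3_S389A, rose by 0.27 (SE 0.036, limma adjusted p = 2.12e-07) with IRX3_S361A and rose by 0.49 (SE 0.036, limma adjusted p = 3.86e-14) with IRX3_WT, each relative to GFP. Compared with IRX3_WT, it differed by -0.0007 (SE 0.036, limma adjusted p = 0.994) with IRX3_S389A, an estimate whose 95% interval ran from -0.074 to 0.073, and it fell by 0.22 (SE 0.036, limma adjusted p = 1.74e-05) with IRX3_S361A.

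Pfkl had 2149.7, 2068 and 1898 normalized counts with IRX3_S389A, 1840.2, 1863 and 1936 with IRX3_S361A, 2202, 2255 and 2662 with IRX3_WT, and 1702, 1772 and 1741 with GFP. IRX3_WT replicate 3 was the highest library, and IRX3_WT overlapped neither mutant. Pfkl rose by 0.44 (SE 0.056, limma adjusted p = 5.7e-08) with IRX3_WT relative to GFP. Relative to IRX3_WT it fell by 0.22 (SE 0.056, limma adjusted p = 0.00678) with IRX3_S389A and fell by 0.33 (SE 0.056, limma adjusted p = 4.63e-05) with IRX3_S361A. The IRX3_S389A call was lost without IRX3_S389A replicate 3 or IRX3_WT replicate 3 (log2 differences -0.17 to -0.13, limma adjusted p = 0.0544 to 0.114). Pfkm passed in no comparison, and at 34.4 to 40.2 normalized counts per kb in the group means it was the least abundant of the 3, below Pfkl at 260.4 to 356 and Pfkp at 336 to 473.

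Pfkfb3 and Pfkfb4 encode bifunctional enzymes that make and remove the sugar bisphosphate that activates phosphofructokinase, and they moved in opposite directions with IRX3_WT. Pfkfb3 had 2527, 2673 and 2249 normalized counts with IRX3_S389A, 2271, 2602 and 2390.4 with IRX3_S361A, 2403, 2396 and 2816 with IRX3_WT, and 1539, 1462 and 1386 with GFP. The 3 IRX3 groups overlapped one another and all lay above GFP. Relative to GFP, Pfkfb3 rose by 0.76 (SE 0.072, limma adjusted p = 1.65e-07) with IRX3_S389A, rose by 0.73 (SE 0.072, limma adjusted p = 5.08e-07) with IRX3_S361A and rose by 0.79 (SE 0.072, limma adjusted p = 8.23e-08) with IRX3_WT. Set against IRX3_WT, it differed by -0.031 (SE 0.072, limma adjusted p = 0.838) with IRX3_S389A (95% interval -0.18 to 0.12) and differed by -0.066 (SE 0.072, limma adjusted p = 0.621) with IRX3_S361A (95% interval -0.22 to 0.087).

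Pfkfb4 had 492, 478 and 469.5 normalized counts with IRX3_S389A, 465, 513 and 468 with IRX3_S361A, 388.9, 401 and 344 with IRX3_WT, and 529, 507 and 565 with GFP. All 3 IRX3_WT libraries lay below the other 9, and GFP was highest, overlapping IRX3_S361A. It was the 1 member that fell with IRX3_WT relative to GFP, where it fell by 0.50 (SE 0.077, limma adjusted p = 1.44e-06). With IRX3_S389A it rose by 0.35 (SE 0.077, limma adjusted p = 0.00134) and with IRX3_S361A it rose by 0.35 (SE 0.077, limma adjusted p = 0.00104), both relative to IRX3_WT. The differences from GFP were -0.15 with IRX3_S389A and -0.15 with IRX3_S361A, and neither passed.

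The aldolases split the sugar bisphosphate, and Tpi1 interconverts the products. Aldoa, the main form here, had 27328, 28799.5 and 27178 normalized counts with IRX3_S389A, 25427, 25614 and 25176 with IRX3_S361A, 26119, 27737 and 27472 with IRX3_WT, and 23097, 23790.2 and 24081 with GFP. GFP lay lowest and IRX3_S361A next, without overlap, and IRX3_S389A overlapped IRX3_WT. Aldoa rose by 0.20 (SE 0.031, limma adjusted p = 2.19e-06) with IRX3_WT relative to GFP, but the difference was 0.02 at equal library totals and did not pass. It fell by 0.093 (SE 0.031, limma adjusted p = 0.035) with IRX3_S361A relative to IRX3_WT, a call lost without IRX3_S361A replicate 1, 2 or 3 or IRX3_WT replicate 2 or 3 (log2 differences -0.099 to -0.076, limma adjusted p = 0.0609 to 0.139). The rise of 0.10 with IRX3_S361A relative to GFP turned to -0.01 at equal totals, and was lost without GFP replicate 1 (log2 difference 0.086, limma adjusted p = 0.086). With IRX3_S389A relative to IRX3_S361A, Aldoa rose by 0.13 (SE 0.031, limma adjusted p = 0.00447), lost without IRX3_S389A replicate 2 (log2 difference 0.10, limma adjusted p = 0.071).

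Aldoc, a second aldolase known best from brain, was much less abundant and had 209.7, 189 and 195 normalized counts with IRX3_S389A, 142, 186 and 142 with IRX3_S361A, 133, 154 and 126 with IRX3_WT, and 148, 139 and 168 with GFP. All 3 IRX3_S389A libraries lay above the other 9. Aldoc rose by 0.53 (SE 0.13, limma adjusted p = 0.00336) with IRX3_S389A relative to IRX3_WT and rose by 0.39 (SE 0.13, limma adjusted p = 0.0164) relative to GFP. The second call was lost without IRX3_S389A replicate 1 or GFP replicate 1 or 2 (log2 differences 0.33 to 0.37, limma adjusted p = 0.0515 to 0.0839). Tpi1 had 6179.6, 6064 and 6201 normalized counts with IRX3_S389A, 5421, 5326 and 5719 with IRX3_S361A, 5859, 5769 and 5903 with IRX3_WT, and 5198, 5314 and 5384 with GFP. It rose by 0.14 (SE 0.037, limma adjusted p = 0.00192) with IRX3_WT relative to GFP, but the difference was -0.035 at equal library totals. With IRX3_S389A it rose by 0.16 (SE 0.037, limma adjusted p = 0.00184) relative to IRX3_S361A, with no overlap between the mutants.

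Of the 7 genes that lead to pyruvate and lactate, 5 rose with IRX3_WT relative to GFP, by small amounts. Pkm, Pgk1, Ldha, Pgam1 and Eno1 were among the abundant members: per kilobase of exon, group means were 10096 to 10895 normalized counts for Pkm, 5334 to 6319 for Pgk1, 4015 to 4554 for Ldha, 2904 to 3410.2 for Pgam1 and 2284 to 2545 for Eno1, beside 8126 to 9539 for Aldoa. Pgk1, which makes ATP from a phosphorylated intermediate, had 14088, 14508 and 13944 normalized counts with IRX3_S389A, 12713, 12817 and 12716 with IRX3_S361A, 13581, 14082 and 13344 with IRX3_WT, and 11751, 12145 and 12012 with GFP. GFP lay lowest and IRX3_S361A next, with no overlap, and IRX3_S389A overlapped IRX3_WT at the top. Ldha, which turns pyruvate into lactate, had 15219.7, 15596 and 14410.4 normalized counts with IRX3_S389A, 13076, 13648 and 13770.2 with IRX3_S361A, 14345, 14906 and 15019 with IRX3_WT, and 13067, 13387 and 13416 with GFP. Here the ranges of IRX3_S361A and GFP overlapped, and so did those of IRX3_S389A and IRX3_WT.

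Equal library totals turned the sign of this difference for Ldha, Pgam1 and Eno1, and left that of Pgk1, Pkm and Gapdh as it was. Pgk1 rose by 0.19 (SE 0.032, limma adjusted p = 6.82e-06) with IRX3_WT relative to GFP, or 0.015 at equal library totals, where it did not pass. Ldha rose by 0.15 (SE 0.034, limma adjusted p = 0.000424) in the same comparison, or -0.026 at equal totals. Pgam1 had a difference of 0.15 and Eno1 of 0.12, both called higher, but -0.023 and -0.056 at equal totals. Pkm, the pyruvate kinase gene, differed by -0.061 (SE 0.028, limma adjusted p = 0.0764) and was called lower at equal totals, at -0.24.

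Between the mutants, Pgk1 rose by 0.15 (SE 0.032, limma adjusted p = 0.000989), Ldha rose by 0.16 (SE 0.034, limma adjusted p = 0.00117) and Pgam1 rose by 0.20 (SE 0.036, limma adjusted p = 0.000156) with IRX3_S389A relative to IRX3_S361A. In each of these 3 genes every IRX3_S389A library lay above every IRX3_S361A library. With equal library totals the same differences were 0.097, 0.10 and 0.14 and passed. Eno1 rose by 0.11 (SE 0.033, limma adjusted p = 0.019), a call lost without IRX3_S389A replicate 2 or IRX3_S361A replicate 3 (log2 differences 0.11 to 0.11, limma adjusted p = 0.0674 to 0.0827), and at 0.058 with equal totals it did not pass.

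Relative to IRX3_WT, Pgk1, Ldha and Pgam1 were called lower with IRX3_S361A, with log2 differences of -0.10 for Pgk1, -0.13 for Ldha and -0.12 for Pgam1. All 3 calls were lost at equal totals, at -0.037, -0.065 and -0.054. The Ldha call was also lost without IRX3_S361A replicate 1 (log2 difference -0.11, limma adjusted p = 0.052). The Pgk1 call was lost without any 1 of IRX3_S361A replicate 1, 2 or 3 or IRX3_WT replicate 2 (log2 differences -0.10 to -0.079, limma adjusted p = 0.0575 to 0.136), and the Pgam1 call without any 1 of IRX3_S361A replicate 1 or 3 or IRX3_WT replicate 2 or 3 (log2 differences -0.11 to -0.10, limma adjusted p = 0.062 to 0.0736). Pgk1 also passed in IRX3_S361A relative to GFP, at 0.091, which turned to -0.022 at equal totals and was lost without IRX3_S361A replicate 1, 2 or 3 or GFP replicate 1 or 3 (log2 differences 0.078 to 0.094, limma adjusted p = 0.0546 to 0.145). Pkm rose by 0.11 (SE 0.028, limma adjusted p = 0.00454) with IRX3_S389A relative to IRX3_WT, a call lost without IRX3_S389A replicate 2 (log2 difference 0.094, limma adjusted p = 0.0503).

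Gapdh, the dehydrogenase between aldolase and Pgk1 in the pathway, was listed far below its neighbours, at 63.7 to 90.1 normalized counts per kb in the group means. It shares 50-base stretches with 208 annotated pseudogenes, and how reads that fit several places were counted is not given in the sources used here. Gapdh had 258, 241 and 291 normalized counts with IRX3_S389A, 274, 277 and 250.3 with IRX3_S361A, 329, 368 and 421 with IRX3_WT, and 304, 303 and 291 with GFP. IRX3_WT libraries lay above the other 9. Gapdh fell by 0.50 (SE 0.097, limma adjusted p = 0.000279) with IRX3_S389A and fell by 0.47 (SE 0.097, limma adjusted p = 0.000497) with IRX3_S361A, both relative to IRX3_WT. It rose by 0.31 (SE 0.097, limma adjusted p = 0.0108) with IRX3_WT relative to GFP, or 0.13 at equal totals, where it did not pass, and the call was lost without IRX3_WT replicate 3 (log2 difference 0.21, limma adjusted p = 0.111). Pseudogenes or other genes also share 50-base stretches covering 72.2% of Eno1, 68.0% of Pgk1, 62.4% of Bnip3, 41.5% of Pgam1 and 34.4% of Pkm, so the levels of these genes are uncertain. The same limit holds to a lesser degree for Ldhb, at 27.0%, Ldha, at 16.6%, and Aldoa, at 13.5%.

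Ldhb, which favours the reverse reaction to pyruvate, was listed at 6.81 to 9.12 normalized counts per kb in the group means, against 4015 to 4554 for Ldha, and passed in no comparison. Pdk1 and Pdk3 encode kinases that shut off pyruvate dehydrogenase and so keep pyruvate out of the mitochondria. Pdk1, a known HIF1A target, had 288, 298 and 261 normalized counts with IRX3_S389A, 244, 264 and 236 with IRX3_S361A, 267, 256 and 314 with IRX3_WT, and 316, 314 and 290.3 with GFP. Relative to GFP it fell by 0.31 (SE 0.097, limma adjusted p = 0.016) with IRX3_S361A, with no overlap between the groups. That was the 1 fall among members in that comparison, and it was lost without IRX3_S361A replicate 3 or GFP replicate 1 or 2 (log2 differences -0.29 to -0.27, limma adjusted p = 0.0585 to 0.0706). With IRX3_WT relative to GFP, Pdk1 differed by -0.14 (SE 0.097, limma adjusted p = 0.262), and at equal totals it was called lower, at -0.32. Pdk3 had 287, 278 and 267 normalized counts with IRX3_S389A, 288, 276 and 239 with IRX3_S361A, 244, 258 and 251 with IRX3_WT, and 251, 245 and 237 with GFP, and its difference between IRX3_WT and GFP was 0.04 (95% interval -0.15 to 0.23).

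Of the 9 HIF1A targets outside glycolysis, 7 rose with IRX3_WT relative to GFP. Ak4, whose product transfers phosphate between adenine nucleotides in mitochondria, had 264, 293 and 262 normalized counts with IRX3_S389A, 167, 233 and 158 with IRX3_S361A, 304, 354 and 338 with IRX3_WT, and 155, 116 and 139.8 with GFP. The 4 groups did not overlap, in the order IRX3_WT, IRX3_S389A, IRX3_S361A and GFP. Relative to GFP, Ak4 rose by 1.00 (SE 0.12, limma adjusted p = 3.05e-08) with IRX3_S389A, rose by 0.43 (SE 0.12, limma adjusted p = 0.00886) with IRX3_S361A and rose by 1.28 (SE 0.12, limma adjusted p = 9.84e-11) with IRX3_WT. Compared with IRX3_WT, it differed by -0.28 (SE 0.12, limma adjusted p = 0.133) with IRX3_S389A, which did not pass, and fell by 0.85 (SE 0.12, limma adjusted p = 3.13e-06) with IRX3_S361A. The rise with IRX3_S361A over GFP was lost without IRX3_S361A replicate 2 or GFP replicate 2 (log2 differences 0.25 to 0.31, limma adjusted p = 0.0936 to 0.155), and at 0.31 with equal totals.

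Gbe1, which makes the branches of glycogen, had 857, 909 and 976 normalized counts with IRX3_S389A, 719, 709 and 768 with IRX3_S361A, 1095, 928 and 963 with IRX3_WT, and 585, 651 and 661 with GFP. GFP lay lowest, IRX3_S361A next without overlap, and IRX3_S389A overlapped IRX3_WT. Gbe1 rose by 0.65 (SE 0.067, limma adjusted p = 2.5e-10) with IRX3_WT relative to GFP and fell by 0.44 (SE 0.067, limma adjusted p = 6.18e-06) with IRX3_S361A relative to IRX3_WT. Relative to GFP it rose by 0.21 (SE 0.067, limma adjusted p = 0.0165) with IRX3_S361A, a call lost without IRX3_S361A replicate 3 or GFP replicate 1 (log2 differences 0.16 to 0.18, limma adjusted p = 0.0951 to 0.136) and, at 0.099, with equal totals.

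Bnip3, a receptor for the removal of mitochondria, had 343, 349 and 380.1 normalized counts with IRX3_S389A, 286, 284 and 278 with IRX3_S361A, 401, 405 and 495 with IRX3_WT, and 277, 306 and 272 with GFP. IRX3_WT lay above the other 9 libraries, IRX3_S389A next without overlap, and IRX3_S361A lay within the GFP range. Bnip3 rose by 0.60 (SE 0.091, limma adjusted p = 1e-06) with IRX3_WT relative to GFP. Relative to IRX3_WT it fell by 0.27 (SE 0.091, limma adjusted p = 0.0353) with IRX3_S389A and fell by 0.61 (SE 0.091, limma adjusted p = 3.85e-06) with IRX3_S361A. The IRX3_S389A call was lost without IRX3_S389A replicate 1 or 2 or IRX3_WT replicate 3 (log2 differences -0.26 to -0.17, limma adjusted p = 0.109 to 0.279). With IRX3_S389A relative to IRX3_S361A, Bnip3 rose by 0.33 (SE 0.091, limma adjusted p = 0.0118), lost without IRX3_S389A replicate 3 (log2 difference 0.29, limma adjusted p = 0.0757). Another gene overlaps 22.3% of its exon bases on the other strand.

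Vegfa, which encodes a growth factor for blood vessels, had 182, 221 and 147 normalized counts with IRX3_S389A, 159.9, 140.1 and 163 with IRX3_S361A, 269, 194 and 333 with IRX3_WT, and 159, 193 and 154 with GFP. IRX3_WT held the 2 highest libraries and spread widely, and it overlapped IRX3_S389A but not IRX3_S361A. Vegfa rose by 0.62 (SE 0.17, limma adjusted p = 0.00475) with IRX3_WT relative to GFP and fell by 0.75 (SE 0.17, limma adjusted p = 0.00319) with IRX3_S361A relative to IRX3_WT. Set against IRX3_WT, it fell by 0.52 (SE 0.17, limma adjusted p = 0.0403) with IRX3_S389A, lost without any 1 of IRX3_S389A replicate 1 or 3, IRX3_S361A replicate 1, 2 or 3, IRX3_WT replicate 1 or 3 or GFP replicate 1 or 3 (log2 differences -0.52 to -0.33, limma adjusted p = 0.0513 to 0.181).

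Ero1l encodes an oxidase that forms disulfide bonds in the endoplasmic reticulum and had 2147, 2313 and 2387 normalized counts with IRX3_S389A, 1964, 2086 and 2122 with IRX3_S361A, 2637, 2445 and 2672 with IRX3_WT, and 1938, 1957 and 1884 with GFP. IRX3_WT lay above the other 9 libraries and GFP lay below them. Ero1l rose by 0.42 (SE 0.048, limma adjusted p = 2.21e-09) with IRX3_WT relative to GFP. Compared with IRX3_WT, it fell by 0.18 (SE 0.048, limma adjusted p = 0.00756) with IRX3_S389A and fell by 0.33 (SE 0.048, limma adjusted p = 2.45e-06) with IRX3_S361A. The IRX3_S389A call was lost without IRX3_S389A replicate 1 or IRX3_WT replicate 3 (log2 differences -0.16 to -0.14, limma adjusted p = 0.051 to 0.0929). With IRX3_S389A relative to IRX3_S361A it rose by 0.15 (SE 0.048, limma adjusted p = 0.0394), lost without any 1 of IRX3_S389A replicate 2 or 3 or IRX3_S361A replicate 1 or 2 (log2 differences 0.12 to 0.16, limma adjusted p = 0.0649 to 0.198) and, at 0.093, with equal totals.

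P4ha1 and P4ha2 encode catalytic subunits of collagen prolyl hydroxylase. P4ha1 had 3263, 3418 and 3546 normalized counts with IRX3_S389A, 2847, 2885 and 2856 with IRX3_S361A, 3443, 3254 and 3163 with IRX3_WT, and 2513, 2753 and 2531 with GFP. IRX3_S389A overlapped IRX3_WT, and IRX3_S361A lay between these and GFP. P4ha1 rose by 0.34 (SE 0.045, limma adjusted p = 5.79e-08) with IRX3_WT relative to GFP, fell by 0.20 (SE 0.045, limma adjusted p = 0.00132) with IRX3_S361A relative to IRX3_WT and rose by 0.25 (SE 0.045, limma adjusted p = 0.000102) with IRX3_S389A relative to IRX3_S361A. Its rise with IRX3_S361A over GFP, 0.14, was lost without IRX3_S361A replicate 2 or GFP replicate 1 or 3 (log2 differences 0.12 to 0.13, limma adjusted p = 0.054 to 0.0973) and, at 0.027, with equal totals. P4ha2 had 30.3 to 53.9 normalized counts over the 12 libraries and passed in no comparison.

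Ndrg1, a gene known to respond to stress and hypoxia, had 936, 869.6 and 846 normalized counts with IRX3_S389A, 873, 1038 and 941 with IRX3_S361A, 924, 876 and 938 with IRX3_WT, and 728, 743 and 722 with GFP. GFP lay below the other 9 libraries, and the 3 IRX3 groups overlapped. Ndrg1 rose by 0.27 (SE 0.063, limma adjusted p = 0.000608) with IRX3_S389A, rose by 0.37 (SE 0.063, limma adjusted p = 1.03e-05) with IRX3_S361A and rose by 0.32 (SE 0.063, limma adjusted p = 6.76e-05) with IRX3_WT, each relative to GFP. Relative to IRX3_WT it differed by -0.047 (SE 0.063, limma adjusted p = 0.689) with IRX3_S389A and differed by 0.055 (SE 0.063, limma adjusted p = 0.632) with IRX3_S361A. At equal library totals the rise with IRX3_WT was 0.14 and did not pass. Ankrd37, an ankyrin repeat gene, shares 26.4% of its exon bases with other genes and did not pass.

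Genes around the pathway were read from lists drawn up by function, also with earlier results of these data known. Their counts stand beside the 21.0% of all genes tested that rose and the 18.6% that fell with IRX3_WT relative to GFP. Of 12 genes that control HIF1A, 7 rose and 1 fell with IRX3_WT relative to GFP, among them Cul2, a scaffold of the ligase that degrades HIF1A, which rose by 0.34 (SE 0.054, limma adjusted p = 2.08e-06). Relative to IRX3_WT, 1 of the 12 fell with IRX3_S389A and 2 with IRX3_S361A, against 7.08% and 9.07% of all genes tested. Of 21 other HIF1A targets, 7 rose and 5 fell with IRX3_WT relative to GFP. With IRX3_S361A relative to IRX3_WT, 3 rose and 3 fell, against 6.43% and 9.07% of all genes tested. Calls in this list thus went both ways. Ddit4, an inhibitor of mTOR signalling, had 21.7, 10.1 and 12.2 normalized counts with IRX3_S389A, 10.1, 22.9 and 18.1 with IRX3_S361A, 37.4, 28 and 42.1 with IRX3_WT, and 12.1, 16.6 and 16.9 with GFP. It rose by 1.18 (SE 0.35, limma adjusted p = 0.00628) with IRX3_WT relative to GFP. Angptl4, an inhibitor of lipoprotein lipase, was at 0 in all IRX3_S389A and IRX3_WT libraries and at 0 to 2.01 with IRX3_S361A, against 10.1 to 15.1 normalized counts with GFP. Hmox1, the heme oxygenase gene, had 7292, 7873 and 7353 normalized counts with IRX3_S389A, 5784, 6140.4 and 6081 with IRX3_S361A, 8682, 7734 and 7953 with IRX3_WT, and 4969, 4933 and 4839.7 with GFP, and fell by 0.44 (SE 0.041, limma adjusted p = 2.02e-10) with IRX3_S361A relative to IRX3_WT. Kdm3a, a histone demethylase gene, fell by 0.33 (SE 0.068, limma adjusted p = 0.000609) with IRX3_S389A relative to IRX3_WT.

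Of 17 other genes of sugar entry and glycolysis, 3 rose and 6 fell with IRX3_WT relative to GFP. Pfkfb2, another gene of the Pfkfb family, had 69.2, 47.3 and 54.9 normalized counts with IRX3_S389A, 56.7, 84.5 and 73.4 with IRX3_S361A, 62, 58.2 and 42.1 with IRX3_WT, and 116, 108 and 97.1 with GFP. It fell by 0.99 (SE 0.19, limma adjusted p = 6.71e-05) with IRX3_WT relative to GFP. Eno2, a second enolase gene, had 647, 572 and 562 normalized counts with IRX3_S389A, 584, 593 and 547 with IRX3_S361A, 731, 751 and 728 with IRX3_WT, and 472, 479 and 472 with GFP. IRX3_WT was highest and GFP lowest, and Eno2 fell by 0.31 (SE 0.069, limma adjusted p = 0.00106) with IRX3_S389A and fell by 0.36 (SE 0.069, limma adjusted p = 0.000193) with IRX3_S361A, both relative to IRX3_WT. Of 31 genes of pyruvate oxidation and the citric acid cycle, 8 fell and 1, Dld, rose with IRX3_WT relative to GFP. Idh2, the mitochondrial isocitrate dehydrogenase gene, had 1023, 1069 and 937 normalized counts with IRX3_S389A, 1141, 1019 and 1079 with IRX3_S361A, 807, 967 and 872 with IRX3_WT, and 1118, 1168 and 1145 with GFP, and fell by 0.38 (SE 0.063, limma adjusted p = 4.98e-06) in that comparison. Relative to IRX3_WT, Idh2 rose by 0.29 (SE 0.063, limma adjusted p = 0.000753) with IRX3_S361A.

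Of 9 pentose phosphate genes, 2 rose and 2 fell with IRX3_WT relative to GFP, near the background of 21.0% and 18.6%. Pgd, a dehydrogenase of the pathway's oxidative branch, rose by 0.28 (SE 0.032, limma adjusted p = 3.23e-09) there and fell by 0.15 (SE 0.032, limma adjusted p = 0.000822) with IRX3_S361A relative to IRX3_WT. Taldo1, the transaldolase gene, rose by 0.20 (SE 0.037, limma adjusted p = 0.000132) with IRX3_S389A relative to IRX3_WT. Of 13 glycogen genes, 1 rose and 3 fell with IRX3_WT relative to GFP. Pygb, a glycogen phosphorylase gene, had 638, 652 and 666 normalized counts with IRX3_S389A, 697, 576 and 628 with IRX3_S361A, 596, 520.2 and 537 with IRX3_WT, and 826, 815 and 812 with GFP, with GFP above the other 9 libraries, and it fell by 0.57 (SE 0.07, limma adjusted p = 1.18e-08). Phka2, a subunit of phosphorylase kinase, fell by 0.39 (SE 0.065, limma adjusted p = 7.85e-06) in the same comparison, and Gyg, the glycogenin gene that primes glycogen, rose by 0.32 (SE 0.068, limma adjusted p = 0.000661) with IRX3_S389A relative to IRX3_WT.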

How the data were processed

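Total RNA of 12 libraries was analysed, 3 for each of IRX3_S389A, IRX3_S361A, IRX3_WT and GFP. The submitters' processing notes name the mm10 build, Trimmomatic without a version, HISAT2 2.1.0 and StringTie 1.3.5. Not given in the sources used here are the counter, whether it used strand, the annotation release and how size factors were computed, so values of genes that overlap another gene are uncertain.

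The deposited values are a normalized signal for 55401 genes, although their name speaks of raw counts. In each library 100% of the values were multiples of a single step (tolerance 1e-06), so the authors' signal is the read count divided by 1 size factor per library. Whole reads were recovered for all 12. In 3 libraries, IRX3_S361A replicates 2 and 3 and IRX3_S389A replicate 2, the step lay within 1% of 1, and edgeR was run with and without them. Recovered reads ran from 17149058 to 20108002. A floor of 3 reads equals 2.67 to 3.41 normalized counts and covers counting error only.

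The main test was limma 3.58.1 (R 4.3.3, trend and robust settings) on log2(value + 1), over the 13369 genes that reached 10 normalized counts in 3 or more libraries. A single fit held the 12 libraries with a mean per group (8 residual degrees of freedom). Benjamini-Hochberg adjustment ran over all genes tested, with a threshold of 0.05. Fold changes of weakly expressed genes are understated because of the pseudocount. Alternatives used edgeR 4.0.16 and DESeq2 1.42.0 on recovered reads, other pseudocounts, filters and scalings, removal of the GC trend, replicate numbers as a block, and each library left out in turn. The scripts were checked on simulated data.

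Symbols, exon lengths and overlaps came from GENCODE M21 (GRCm38, the assembly of mm10), where 99.5% of gene IDs matched without version. Promoter windows came from RefSeq. Every member may be named. From each list of neighbouring genes, up to 2 called genes with the largest log2 fold change in IRX3_WT vs GFP and in each mutant vs IRX3_WT were eligible, which gave 34 picks. The 17 whose calls held without each library in turn are named with that comparison, and the other 17 are left out. Members, lists and rule were chosen with earlier results of these data known.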

Additional observations from a re-analysis of the deposited data

How the results depend on the processing

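Both other pseudocounts (0.5 and 5) kept all 216 member differences (36 members in 6 comparisons). A difference that passed was kept if it passed again in the same direction. One that did not pass was kept if it again did not pass and either held its direction or moved by less than its SE. DESeq2 kept 214, TMM factors and edgeR on 12 libraries 213 each, no filter on low values 211, fits of only the 2 groups compared 209, and removal of the GC trend 199, with 12 newly called and 1 lost. A filter of 50 normalized counts kept 197 of those still tested.

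Equal library totals changed most, keeping 149 of 216. They reversed Eno1 (-0.056), Tpi1 (-0.035), Ldha (-0.026), Hk3 (-0.15) and Pgam1 (-0.023) in IRX3_WT vs GFP, Ldha (-0.091), Aldoa (-0.010) and Pgk1 (-0.022) in IRX3_S361A vs GFP, and Eno1 (-0.013), Gpi1 (-0.15) and Pkm (-0.12) in IRX3_S389A vs GFP. This scaling moves every gene of a library together, by the shifts of the all-gene median given above.

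edgeR on the 9 libraries whose step differed from 1 by over 1% called 1377 genes in IRX3_S361A vs IRX3_WT in place of 2071, 2253 in IRX3_S361A vs GFP in place of 3457 and 433 in IRX3_S389A vs IRX3_S361A in place of 1359. It called 5 members in IRX3_S361A vs GFP and 5 in IRX3_S389A vs IRX3_S361A. It lacks IRX3_S361A replicates 2 and 3 and IRX3_S389A replicate 2, so both groups have fewer libraries by construction.

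With 1 library left out, members called ranged from 23 to 25 in IRX3_WT vs GFP, 16 to 20 in IRX3_S361A vs IRX3_WT, 6 to 12 in IRX3_S389A vs IRX3_WT, 7 to 13 in IRX3_S361A vs GFP, 21 to 23 in IRX3_S389A vs GFP, 12 to 17 in IRX3_S389A vs IRX3_S361A and 26 to 28 over the 4 groups. Genes called ranged from 4558 to 5366, 1483 to 2172, 1451 to 2174, 2871 to 3536, 3994 to 4764, 908 to 1417 and 5249 to 5880 in the same order. The members called can differ between these fits. In the 6 pairwise comparisons, in that order, the member calls that held in every such fit were 23 of 24, 16 of 20, 4 of 11, 6 of 13, 21 of 22 and 11 of 16.

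Replicate numbers did not pair the libraries. Residuals of same-numbered libraries correlated at -0.041 to 0.030 and those of other pairs at -0.045 to 0.047, and 3 of 12 libraries correlated best with their own number. With the replicate block, 24, 20, 10, 13, 22 and 17 members were called in the order above, and the Hif1a (limma adjusted p = 0.0816) and Vegfa (limma adjusted p = 0.103) calls in IRX3_S389A vs IRX3_WT were lost.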
